A study of Mus musculus with 60 samples.

Results

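The genes described here are 39 complement, coagulation and fibrinolysis genes of the mouse. They were listed by name and not by a rule on their values, although earlier results of these data were known. All 39 were found in both expression tables, among 19355 genes in the table of cells and 17473 genes in the table of livers. In the cells 37 of the 39 passed the filter on low values (1 FPKM or more in at least 3 samples), Cfd and Tfpi being the exceptions, and in the livers all 39 passed. The values are FPKM, that is, fragments per kilobase of transcript scaled to the depth of the library, so levels can be set side by side between genes.

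The study grew mouse hepatocytes with interleukin 6 (IL6) and followed livers after 2/3 partial hepatectomy (PHX). Mice were C57BL/6 in the labels (C57BL/6J in the methods) and labelled WT, and were 8 to 10 weeks old according to the methods. Hepatocytes are freshly isolated cells. IL6-iHPCs, the induced hepatic progenitor cells, are hepatocytes cultured in a medium with insulin, transferrin and selenium, EGF, HGF, dexamethasone and IL6, taken at day 3 and day 14 of the first culture (D3 and D14, P0) and after passaging. The passaged lines were mouse-1 at P10 and P35, mouse-2 at P10 and clone-1 at P20, the last being 1 clone grown from a single cell. It is labelled WT like the rest, while the single-cell clones in the methods came from mice with Albumin-Cre and a tdTomato reporter. IL6-iMHs, the matured cells, came from the same 4 cultures after 7 days in another medium. It held dexamethasone, oncostatin M and insulin, transferrin and selenium, without IL6, EGF or HGF. The methods give a higher concentration of dexamethasone in it than in the culture medium. The effects of these changes of medium cannot be told apart. The 4 cultures are called lines here, although mouse-1 at P10 and P35 is the same line, so that means over the lines count mouse-1 at both passages. Livers were normal (not operated) or were taken at 6 hours, 24 hours, and 3, 7 and 14 days after PHX, so that surgery and resection cannot be told apart. Each of the 11 cell groups and 6 liver groups held 3 samples. The cell samples of a group are technical repeats according to the study, and nothing says that the liver samples of a group came from separate mice, so p-values measure the spread between these samples only.

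Complement is a set of plasma proteins that mark and lyse microbes. The lectin pathway and the alternative pathway converge on C3, and C5 to C9 then assemble a pore in the target membrane. Coagulation runs from tissue factor and the contact factors through factor X to thrombin, which cuts fibrinogen into fibrin, and plasmin dissolves the clot. The liver makes most of these plasma proteins, and fibrinogen and C3 are known as acute phase proteins, which rise with inflammation and with IL6.

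Several of the genes are neighbours in the genome (GRCm38, GENCODE annotation). Fgg, Fga and Fgb, the genes of the 3 fibrinogen chains, lie at chr3:83007724-83015049 (forward strand), chr3:83026076-83033627 (forward) and chr3:83040141-83049863 (reverse). C8b at chr4:104766317-104804548 (forward) and C8a at chr4:104815679-104876398 (reverse) code for chains of complement C8 and face each other with 11130 bases between them. Further neighbours were Hrg, Kng2 and Kng1 on chromosome 16, Cfb and C2 on chromosome 17 with a gap of 85 bases, and the pairs F7 and F10, and F11 and Klkb1, on chromosome 8. The 250 bases before the RefSeq start (GRCm38.p6) are shown for the fibrinogen cluster, since its genes stood apart from the other members in both tables, and for C8a and C8b, the neighbours that fell furthest at D3. The Fga window overlaps the first bases of the GENCODE gene, because RefSeq places the start further downstream. Each runs 5′ to 3′ on the gene's own strand, and capitals mark matches to the motifs given after them.
Fgg, chr3:83007474-83007723, forward strand: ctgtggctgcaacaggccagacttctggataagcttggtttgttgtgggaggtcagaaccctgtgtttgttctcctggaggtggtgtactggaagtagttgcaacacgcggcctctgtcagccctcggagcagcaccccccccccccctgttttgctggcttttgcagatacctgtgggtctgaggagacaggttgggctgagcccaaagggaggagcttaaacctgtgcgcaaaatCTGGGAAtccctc
Fga, chr3:83025903-83026152, forward strand: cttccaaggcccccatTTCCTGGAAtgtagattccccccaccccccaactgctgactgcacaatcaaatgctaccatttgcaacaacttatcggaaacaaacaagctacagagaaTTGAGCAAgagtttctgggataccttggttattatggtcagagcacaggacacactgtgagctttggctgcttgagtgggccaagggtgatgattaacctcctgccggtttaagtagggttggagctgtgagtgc
Fgb, chr3:83049864-83050113, reverse strand: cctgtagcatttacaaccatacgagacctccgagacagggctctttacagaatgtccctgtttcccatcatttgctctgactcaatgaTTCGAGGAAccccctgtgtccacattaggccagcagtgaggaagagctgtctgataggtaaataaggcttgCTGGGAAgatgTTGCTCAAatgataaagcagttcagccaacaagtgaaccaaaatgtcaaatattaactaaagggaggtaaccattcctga
C8a, chr4:104876399-104876648, reverse strand: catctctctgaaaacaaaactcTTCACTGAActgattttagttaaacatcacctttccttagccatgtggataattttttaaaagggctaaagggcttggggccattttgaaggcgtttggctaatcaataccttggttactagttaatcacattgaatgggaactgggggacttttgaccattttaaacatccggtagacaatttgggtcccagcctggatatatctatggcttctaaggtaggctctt
C8b, chr4:104766067-104766316, forward strand: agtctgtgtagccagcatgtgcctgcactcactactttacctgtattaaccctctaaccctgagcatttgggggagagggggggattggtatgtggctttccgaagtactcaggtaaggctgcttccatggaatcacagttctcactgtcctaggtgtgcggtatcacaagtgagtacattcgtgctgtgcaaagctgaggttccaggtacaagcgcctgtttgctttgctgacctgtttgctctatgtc

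The motifs searched, on both strands, were CTGGGAA (the core of the IL6 response element), TTCNNNGAA (STAT), TTGCNNAA (C/EBP) and that of HNF1, given by its name. The Fgg window held CTGGGAA at 13 to 7 bases before the start. The Fga window held TTCCTGGAA at 234 to 226 bases and, read on the other strand, TTGAGCAA at 135 to 128 bases before the start. The Fgb window held CTGGGAA at 91 to 85, TTCGAGGAA at 162 to 154 and TTGCTCAA at 80 to 73 bases before the start. C8a had TTCACTGAA at 228 to 220 bases, and C8b had none of these letters in its window. None of the printed matches overlapped another. Promoters were given for 31 members. CTGGGAA was in 5 of them (16.1%) and in 9.1% of 32851 mouse promoters. TTCNNNGAA was in 6 (19.4%) against 7.02%, and TTGCNNAA in 9 (29%) against 9.56%. The HNF1 motif was in 3 (9.68%), namely Hc, C4bp and F13b, against 0.371%. A match is one of letters, with no measurement of binding.

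Whole reads could be recovered from the FPKM values, and the libraries then held 49.3 to 88.9 M (mega) reads in the cells and 52.1 to 79.3 M reads in the livers, up to a common factor. The 7 hepatocyte marker genes, Alb and Apoa1 among them, summed to 74575 to 80552 FPKM in hepatocytes, 949 to 1109 at D3, 4377 to 5387 at D14, 1947 to 10137 in passaged IL6-iHPCs and 60719 to 81192 in IL6-iMHs. Biliary and progenitor markers (Krt19, Krt7, Sox9, Epcam, Spp1) summed to 3.84 to 3.94 FPKM in hepatocytes, 355 to 529 at D3 and 4060 to 4483 at D14. Their sums were 2699 to 10977 FPKM in passaged IL6-iHPCs and 200 to 1408 in IL6-iMHs. On the log2(FPKM + 1) scale the median of all 12328 genes tested was 1.14 higher at D3 than in hepatocytes, 1.00 higher at D14, 0.93 higher in passaged IL6-iHPCs, 0.46 higher in IL6-iMHs, and 0.40 lower in IL6-iMHs than in their IL6-iHPCs (-0.40). Values relative to this median are therefore given as well.

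In hepatocytes the levels of the 39 genes spread widely. Fgb, the β chain of fibrinogen, was highest at 2731 ± 101 FPKM (SD, n = 3), followed by Fgg, the γ chain, at 2434 ± 194 and Vtn, vitronectin, at 2202 ± 205 FPKM. C3, the central complement protein, followed at 2040 ± 176 and Fga, the α chain, at 1467 ± 118 FPKM. F2, prothrombin, had 1210 ± 58.9, Kng1, kininogen, 1170 ± 96.4 and Plg, plasminogen, 1032 ± 20.4 FPKM. The samples of Fgg, Vtn and C3 overlapped in that order, as did those of F2 and Kng1. At the low end were Pros1, protein S, at 10.3 ± 0.62, Cfp, properdin, at 1.8 ± 0.367 and F3, tissue factor, at 0.949 ± 0.0637 FPKM. Tfpi, the inhibitor of tissue factor, had 0.13 to 0.247 FPKM and Cfd, factor D, 0.0557 to 0.0954 FPKM. Outside hepatocytes Cfd was listed at 0 in 28 of the other 30 cell samples, and Tfpi stayed at or below 0.621 FPKM in every cell sample.

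**Figure D1:**
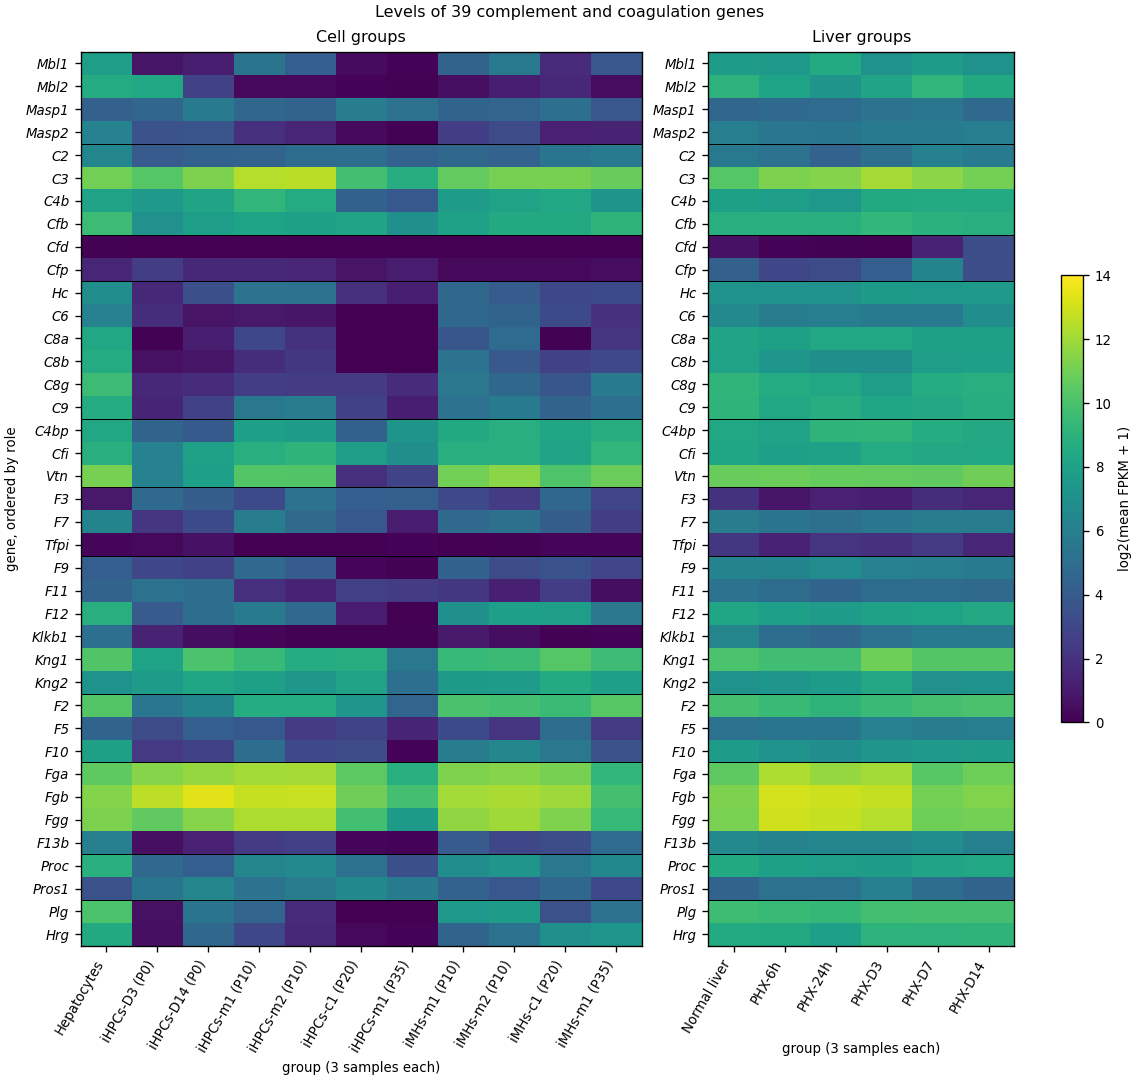
Levels of the 39 genes by role (rows) in the 11 cell groups and the 6 liver groups (columns), as log2 of mean FPKM plus 1, 3 samples per group. Horizontal lines divide the roles. Fgb is the brightest row of the hepatocytes, while Plg falls from 1032 FPKM there to near 0 at D3, in clone-1 and in mouse-1 IL6-iHPCs at P35.

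The first comparison asked how the genes changed when hepatocytes were put into culture with IL6. At D3, 4 of the 37 genes tested were higher and 25 were lower than in hepatocytes, with a change called at an adjusted p under 0.05 and at least 2-fold. Of all genes tested 66.0% changed, 53.9% being higher and 12.1% lower. The members' median difference was -2.64 on the log2 scale, against 1.14 for all genes. At D14, 6 were higher and 23 lower, against 50.0% higher and 12.9% lower among all genes (62.9% changed). The median was then -3.15. Scaling each sample to its median turned the split to 1 higher and 30 lower at D3, with 18.6% and 33.7% of all genes, and to 2 and 30 at D14, with 18.4% and 31.7%. This scaling went past the median gene, which then lay at -0.32 at D3 and -0.31 at D14, so that values under it are lower than those relative to the median gene.

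**Figure D2:**
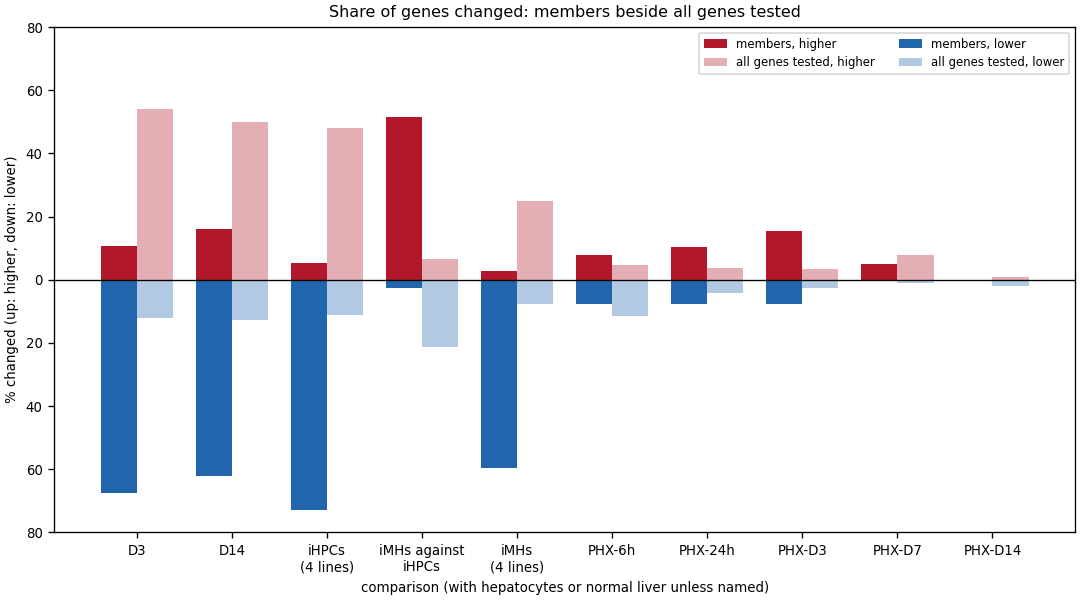
Percent of genes called higher (bars up) or lower (bars down) in each comparison, for the members (dark) and for all genes tested (pale). Members lie mostly below 0 where the pale bars point up, as at D3, where 53.9% of all genes were higher, and the order turns in IL6-iMHs against IL6-iHPCs.

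Genes of terminal complement, whose products form the lytic pore, all fell at D3 (6 of 6, with differences from -4.35 for C6 to -8.26 for C8a). C8a, the α chain of C8, had 302, 337 and 329 FPKM in hepatocytes and 0.0382, 0.0641 and 0.0605 FPKM at D3. C8g, the γ chain, had 796, 704 and 814 FPKM against 1.75, 2.23 and 2.21 FPKM. The groups were far apart for both genes, with log2 differences of -8.26 ± 0.08 (SE, adjusted p = 3.4e-35) and -7.98 ± 0.10 (adjusted p = 6.2e-33). On the log2(FPKM + 1) scale the largest fall was that of Plg, the precursor of plasmin, while with a pseudocount of 0.1 C8a (-11.03) fell further than Plg (-10.59). Plg had 1044, 1043 and 1008 FPKM in hepatocytes and 0.548, 0.626 and 0.534 FPKM at D3, a difference of -9.36 ± 0.10 (adjusted p = 2.4e-34). Hrg, histidine-rich glycoprotein, which binds plasminogen, fell as well (-7.92). At D14 Plg was at 38.6, 45.8 and 38.9 FPKM and Hrg at 21.6, 28.2 and 25.2 FPKM, above every D3 sample and still below every hepatocyte sample. D14 was not tested against D3 here.

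The lectin pathway did not move as a block. Mbl1 and Mbl2 code for mannose-binding lectins, which recognise sugars on microbes. Mbl1 fell from 232 ± 22.2 to 0.721 ± 0.138 FPKM at D3 (log2 difference -7.08), while Mbl2 had 384, 358 and 439 FPKM in hepatocytes and 330, 319 and 336 FPKM at D3, a difference of -0.26 that did not reach 2-fold. Relative to the median gene this difference was -1.39, and under median scaling Mbl2 was called lower (-1.71). By D14 Mbl2 was at 5.5, 5.81 and 5.23 FPKM (-5.92, adjusted p = 3.9e-30). Of the proteases that act with these lectins, Masp2 fell at both times (-2.64 and -2.52). Masp1 differed by 0.36 at D3 and was called higher at D14 (1.53), a call lost under median scaling (0.21). Under the same scaling Masp1 at D3 was at -1.09.

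Among the parts of the C3 convertases, C2 and Cfb, the protease subunits, fell at D3 (-2.42 and -2.5) and at D14 (-2.04 and -1.77). C3 had 1963, 2242 and 1915 FPKM in hepatocytes, 1293, 1214 and 1236 at D3 and 2392, 2586 and 2394 at D14. Neither C3 (-0.71 and 0.27) nor C4b (-0.50 and 0.15) was called. Relative to the median gene C3 was at -1.84 at D3 and -0.73 at D14, and C4b at -1.63 and -0.85. Under median scaling both genes changed sign at D14 and were then lower than in hepatocytes by more than 2-fold. Reads of C4b may be shared with its near-identical neighbour C4a, and those of Kng1 with Kng2, so their values are uncertain. Of the inhibitors, C4bp (C4b-binding protein), Cfi (factor I) and Vtn all fell at D3 (-3.82, -2.54 and -4.91). Cfp was called higher at D3 (1.08), but was at -0.06 relative to the median gene and changed sign under quantile normalization (-0.51) and median scaling (-0.38). Macrophage markers summed to 20.9 to 26.5 FPKM at D3 against 11.6 to 13.7 FPKM in hepatocytes, with 3 of 8 listed at 0 at D3, and their part in the value of Cfp was not tested.

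In the coagulation cascade the common pathway fell at D3 in all 3 of its genes. F2, prothrombin, went from 1277, 1167 and 1186 FPKM in hepatocytes to 46.1, 43.6 and 44.9 FPKM at D3 and 84.1, 79.6 and 73.5 FPKM at D14. All cultured samples lay far below the hepatocytes (-4.72 ± 0.06, adjusted p = 1.1e-31 at D3). F10 fell by 5.64 on the log2 scale and F5, the cofactor of factor X, fell by 1.25. Of the intrinsic and contact factors, F9, F12, Klkb1 and Kng1 fell at D3 (-1.20 to -4.75), whereas F11 (0.77) and Kng2 (0.50) were not called. Kng2 was called higher at D14 (1.11) and was at -0.20 under median scaling. F7, the partner of tissue factor, fell by 4.11.

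F3, the tissue factor that starts coagulation at the cell surface, moved the other way. It had 1.02, 0.929 and 0.898 FPKM in hepatocytes, 26.5, 26.1 and 26.7 FPKM at D3 and 16.9, 16.3 and 15.8 FPKM at D14. Each cultured sample was above each hepatocyte sample, and the difference at D3 was 3.81 ± 0.06 (adjusted p = 7.7e-30), or 2.68 relative to the median gene. Pros1, protein S, the cofactor of protein C, rose from 10.1, 11 and 9.83 FPKM to 38.3, 47.9 and 39.3 FPKM at D3 and 76.9, 85.1 and 83.1 FPKM at D14. The differences were 1.91 and 2.87, or 0.78 and 1.87 relative to the median gene. Proc, protein C itself, fell at both times (-4.12 and -4.70).

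The fibrinogen chains separated from each other in culture. Fgb had 2653, 2696 and 2846 FPKM in hepatocytes, 6398, 5992 and 6038 FPKM at D3 and 10168, 11314 and 10331 FPKM at D14. Fga had 1389, 1603 and 1408 FPKM, then 2882, 2537 and 2949, then 3458, 3618 and 3512 FPKM. Fgg had 2394, 2264 and 2645 FPKM, then 1593, 1342 and 1603, then 2778, 2861 and 2790 FPKM. Fgb and Fga were thus highest at D14, while the D3 samples of Fgg lay below those of hepatocytes. Fgb was called higher at D3 (1.17 ± 0.08, adjusted p = 2.3e-14) and at D14 (1.96). At D3, however, it was at 0.03 relative to the median gene and at -0.29 under median scaling. At D14 it was at 0.96 relative to the median gene and at 0.64, no longer called, under median scaling. Fga differed by 0.93 at D3, was called at D14 (1.27) and was at -0.04 under median scaling then. The ratio of Fgg to Fgb was 0.84 to 0.929 in hepatocytes, 0.224 to 0.265 at D3 and 0.253 to 0.273 at D14, a ratio within each sample that scaling by a constant does not alter. Fibrinogen made up 31.1 to 33.2% of the summed FPKM of the members in hepatocytes, 77.6 to 79.2% at D3 and 75.9 to 76.3% at D14. F13b, the carrier subunit of factor XIII, which crosslinks fibrin, fell at both times (-5.51 and -4.86).

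**Figure D3:**
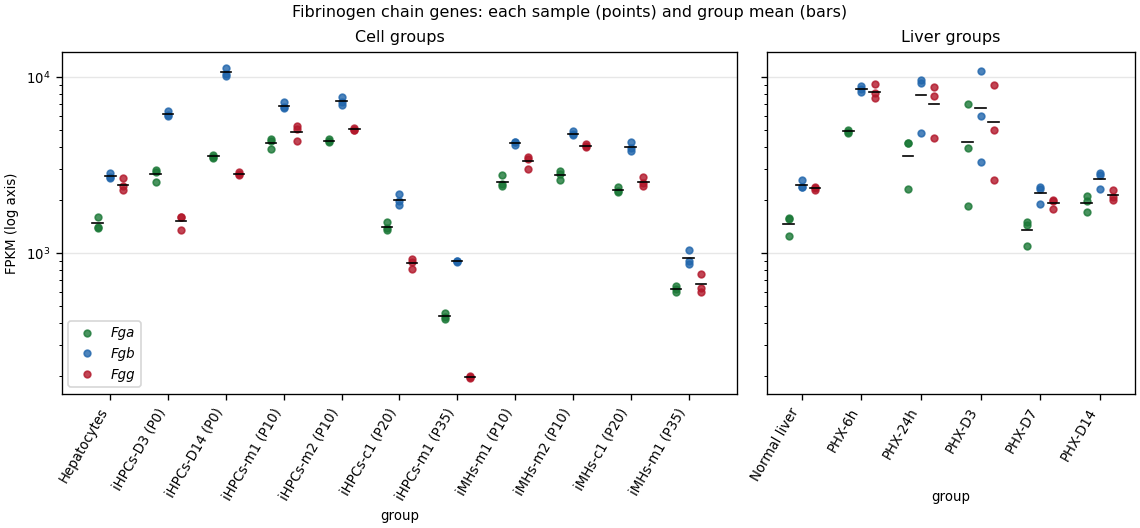
FPKM (log axis) of Fga, Fgb and Fgg in each sample (points) with the group mean (bars), in the cell groups and in the liver groups. Fgg parts from Fgb at D3 and in mouse-1 IL6-iHPCs at P35 (ratio 0.216 to 0.222), while the chains rise side by side in liver at 6 hours.

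The passaged IL6-iHPCs, averaged over the 4 lines, had 2 genes higher and 27 lower than hepatocytes, against 48.1% higher and 11.3% lower among all genes (59.4% changed). The members' median was -2.40. The higher genes were F3 (3.26 ± 0.05) and Pros1 (2.39 ± 0.08). The lines share the same hepatocyte samples, so their values are set side by side only. Mouse-1 at P10 had 7 genes higher and 20 lower (all genes 40.0% and 12.6%, 52.6% in all), and mouse-2 at P10 had 6 and 23 (42.8% and 13.1%, 55.9% in all). Clone-1 at P20 had 3 and 29 (51.5% and 10.4%, 61.9% in all), and mouse-1 at P35 had 2 and 33 (54.3% and 11.7%, 66.0% in all). Under median scaling the split was 1 and 25 in mouse-1 at P10 (all genes 16.5% and 29.9%) and 2 and 27 in mouse-2 (17.0% and 32.0%), and the median gene was then at -0.37 and -0.36. As a share of all FPKM the members made up 3.41 to 3.6% in hepatocytes, 6.06 to 6.8% in mouse-1 at P10, 6.64 to 6.83% in mouse-2, 1.4 to 1.45% in clone-1 and 0.587 to 0.591% in mouse-1 at P35.

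The 3 largest falls of the mean over lines, on the log2(FPKM + 1) scale, were those of Plg, Mbl2 and C8b. Plg had 20.5, 24.5 and 23 FPKM in mouse-1 at P10, 1.63, 2.63 and 2.2 in mouse-2, 0.0193, 0.0229 and 0.0478 in clone-1, and 0, 0 and 0.0124 in mouse-1 at P35. The mean difference from hepatocytes was -8.45 ± 0.08 (adjusted p = 3e-36). Mbl2 was below 0.5 FPKM in all 12 passaged IL6-iHPC samples, from 0.0129 to 0.447 (-8.39 ± 0.07). C8b, a chain of the pore protein C8, had 2.66, 2.26 and 2.74 FPKM in mouse-1 at P10 and 3.37, 4.32 and 4 in mouse-2. It had 0, 0.0147 and 0 in clone-1 and 0, 0.0153 and 0 in mouse-1 at P35, against 372, 388 and 409 in hepatocytes (-7.58 ± 0.07). Hrg fell as well. It had 5.75, 7.95 and 7.52 FPKM in mouse-1 at P10 and 1.75, 2.48 and 2.09 in mouse-2. It had 0.351, 0.136 and 0.256 in clone-1 and 0.14, 0.0755 and 0.0589 in mouse-1 at P35, and differed by -7.19 ± 0.11. All of these lay below the hepatocytes, and the samples from P10 lay above those of clone-1 and P35 for Plg, C8b and Hrg.

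F3 had 8.73, 7.19 and 7.43 FPKM in mouse-1 at P10, 42.4, 38.8 and 38.9 in mouse-2, 16.2, 16.3 and 18.2 in clone-1 and 18.4, 17.5 and 18.2 in mouse-1 at P35. Pros1 had 49.2, 31.6 and 34.9, then 60.4, 59.2 and 60.1, then 92.3, 91.8 and 88, and then 55.4, 55.8 and 57.9 FPKM in the same order. Every passaged sample exceeded every hepatocyte sample for both genes. The lines differed in order, with mouse-2 highest for F3 and clone-1 highest for Pros1. Under median scaling Pros1 in mouse-1 at P10 was at 0.75 and not called.

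As deposited, C3 and fibrinogen lay above hepatocytes in the lines at P10 and not in the others. C3 had 5045, 6120 and 5720 FPKM in mouse-1 at P10 and 5949, 6018 and 6196 in mouse-2, above the 1915 to 2242 FPKM of hepatocytes. It had 865, 916 and 872 FPKM in clone-1 and 421, 442 and 425 in mouse-1 at P35, below hepatocytes. The differences were 1.46, 1.57, -1.20 and -2.24, each called. C4b followed with 1.18, 0.58, -3.72 and -4.22, the second not called. Fgb had 6761, 7199 and 6668 FPKM in mouse-1 at P10, 6971, 7239 and 7651 in mouse-2, 1960, 1865 and 2168 in clone-1 and 894, 887 and 895 in mouse-1 at P35. Its differences were 1.33, 1.41, -0.45 and -1.61, of which that of clone-1 was not called. Fga had 3881, 4444 and 4295, then 4340, 4462 and 4246, then 1375, 1342 and 1500, and then 453, 418 and 430 FPKM, with differences of 1.52, 1.57, -0.06 and -1.75, that of clone-1 again not called. Fgg had 4303, 5283 and 5073, then 5009, 5130 and 4969, then 889, 804 and 923, and then 193, 197 and 199 FPKM. Its rises at P10 (1.00 and 1.05) were at -0.03 and -0.07 under median scaling, and its falls were -1.48 and -3.62. The other rises at P10 were not called under median scaling either. In mouse-1 and mouse-2 they were then 0.43 and 0.45 for C3, 0.49 and 0.45 for Fga, 0.30 and 0.30 for Fgb, and 0.15 and -0.54 for C4b.

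Prothrombin was below hepatocytes in every line. F2 had 383, 407 and 413 FPKM in mouse-1 at P10, 407, 397 and 408 in mouse-2, 147, 153 and 166 in clone-1 and 22.7, 23.7 and 21 in mouse-1 at P35. Vtn, which binds the nascent pore, differed widely between lines. It had 1191, 1227 and 1223 FPKM in mouse-1 at P10 and 1148, 1159 and 1157 in mouse-2, but 2.47, 2.39 and 3.19 in clone-1 and 6.71, 6.25 and 6.01 in mouse-1 at P35. Terminal complement was below hepatocytes by different amounts. C9 was at 44.9 to 63.1 FPKM and Hc at 35.3 to 41.6 in the lines at P10, and at 1.12 to 6.03 and 1.1 to 2.78 in clone-1 and at P35. C8a was lower, at 6.83, 7.2 and 7.21 FPKM in mouse-1 at P10, at 0 in all clone-1 samples and at 0.00981, 0 and 0 at P35.

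Passage was compared within mouse-1. At P35, 1 gene was higher and 26 were lower than at P10, against 24.8% higher and 8.94% lower among all genes (33.7% changed). The members' median was -2.88. F3 was the gene that rose (1.12 ± 0.06, adjusted p = 2.8e-16). On the log2(FPKM + 1) scale, which understates the change of low genes, the largest falls were those of Vtn (-7.37), F12, factor XII (-5.76), C4b (-5.40), Mbl1 (-5.24) and F10 (-4.92). Plg went from 22.7 to 0.00413 FPKM on average. The 3 fibrinogen chains fell by 3.27 (Fga), 2.94 (Fgb) and 4.62 (Fgg) on the log2 scale. C4bp (-0.66), Masp1 (0.60) and Pros1 (0.56) were among the 10 genes not called. These are 1 line and its later passage, so passage and drift of the line cannot be told apart. Marker sums differed between the 2 passages as well. From P10 to P35 the hepatocyte markers went from 7954 to 8913 FPKM to 1947 to 1980. Biliary and progenitor markers went from 7409 to 8438 FPKM to 2699 to 2794. The 6 listed neutrophil markers went from 0.114 to 0.154 FPKM to 86.6 to 92.6. The part of these markers in the members' values was not tested.

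Maturation was then examined by comparing each line's IL6-iMHs with its own IL6-iHPCs. Over the 4 lines 19 genes were higher and 1 was lower, against 6.68% higher and 21.4% lower among all genes (28.1% changed). The members' median was 1.13 and that of all genes -0.40. The counts were 8 higher and 4 lower in mouse-1 at P10 (all genes 9.59% and 15.4%, 25.0% in all) and 13 and 5 in mouse-2 (11.2% and 28.6%, 39.9% in all). They were 22 and 1 in clone-1 (5.86% and 17.7%, 23.6% in all), and 28 and 4 in mouse-1 at P35 (10.2% and 35.1%, 45.3% in all). Under median scaling they were 12 and 2 in mouse-1 at P10 (all genes 15.6% and 8.39%) and 21 and 2 in mouse-2 (24.7% and 12.2%). The median gene of mouse-2 went from -0.35 to 0.34 with that scaling, and that of mouse-1 from -0.17 to 0.15. These 4 comparisons share no samples, and 7 of the 37 genes were higher in each, namely C6, C8b, C8g, F12, F2, Plg and Hrg, against 1.95% of all genes.

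The largest rises on the log2(FPKM + 1) scale were those of Hrg, Vtn and Plg. Hrg reached 18.9, 24.2 and 23.5 FPKM in IL6-iMHs of mouse-1 at P10, 40.2, 30.4 and 37.7 in mouse-2, 126, 128 and 128 in clone-1 and 142, 160 and 188 in mouse-1 at P35. It rose by 4.75 ± 0.07 over the lines (adjusted p = 7.6e-31). Vtn had 1927, 2151 and 2228 FPKM in mouse-1 at P10, 3030, 3000 and 2931 in mouse-2, 1112, 1075 and 1246 in clone-1 and 1680, 1857 and 1952 in mouse-1 at P35, a mean difference of 4.6 ± 0.04. In clone-1 and at P35, where the IL6-iHPCs had held 2.39 to 6.71 FPKM, the differences of Vtn were 8.28 and 7.96, and at P10 they were 0.79 in mouse-1, not called, and 1.37 in mouse-2. Plg had 157, 195 and 171 FPKM, then 210, 202 and 206, then 9.64, 9.89 and 10.5, and then 29.7, 39.3 and 38.4 FPKM in the same order (4.38 ± 0.05). All matured samples of these genes were above the IL6-iHPC samples of their own line.

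F2 rose in each line, by 1.35, 1.18, 2.28 and 5.80, with 957, 1064 and 1046 FPKM in IL6-iMHs of mouse-1 at P10, 940, 847 and 962 in mouse-2, 760, 753 and 762 in clone-1 and 1310, 1264 and 1331 at P35. Contact factor F12 rose by 4.17 ± 0.04 over the lines and F10 by 2.5. Terminal complement rose in 5 of 6 genes, C6 by 3.12, C8b by 2.73, C8g by 2.63, C8a by 1.43 and C9 by 1.29. The rise of C8a came mostly from mouse-2 (3.15 to 28.4 FPKM on average) and P35 (0.00327 to 3.37). It was smaller in mouse-1 at P10 (7.08 to 12.2 FPKM) and in clone-1 (0 to 0.0726). The rise of C9 came from clone-1 (5.56 to 21.1 FPKM on average) and P35 (1.26 to 33.9), while at P10 the mean was 47.1 before and 37.5 FPKM after maturation in mouse-1 and 60.1 and 52.1 in mouse-2, neither called. Hc, which codes for C5, differed by 0.34 as a mean over opposite changes. It went from 39.7 to 25.9 FPKM in mouse-1 at P10, not called, and fell from 36.5 to 15.8 in mouse-2 (-1.16, and -0.47 and not called under median scaling), but rose by 1.15 in clone-1, where it was at 2.66 FPKM before and 7.12 FPKM after, and by 1.97 at P35, with 1.24 and 7.77 FPKM. Pros1 was the gene that fell (-1.91 ± 0.05, adjusted p = 7.9e-25). Its matured samples held 19.7, 21.4 and 18.7 FPKM in mouse-1 at P10, 12.6, 12 and 13.5 in mouse-2, 24.5, 25.5 and 24.3 in clone-1 and 7.41, 7.09 and 7.92 at P35, each below the IL6-iHPCs of its line.

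C3 and the fibrinogen chains showed no common direction in maturation. C3 in IL6-iMHs was at 1307, 2164 and 1393 FPKM in mouse-1 at P10, 2415, 2169 and 2241 in mouse-2, 2313, 2171 and 2310 in clone-1 and 1686, 1633 and 1757 at P35. Its differences at P10 were -1.83 and -1.41, the latter -1.07 relative to the median gene but -0.73 and not called under median scaling, and it rose in clone-1 (1.36) and at P35 (1.98). Fgb had 4257, 4127 and 4262, then 4655, 4895 and 4735, then 3807, 3922 and 4265, and then 864, 1033 and 901 FPKM. Fga had 2400, 2766 and 2445, then 2792, 2592 and 2911, then 2240, 2202 and 2379, and then 594, 644 and 621 FPKM. Fgg had 3429, 3013 and 3482, then 4038, 4156 and 3986, then 2407, 2500 and 2713, and then 630, 760 and 596 FPKM. The IL6-iMHs from P35 thus had the lowest fibrinogen of the matured lines. Fibrinogen was 20.2 to 22.9% of the members' summed FPKM there and 52 to 58.8% in the other IL6-iMHs.

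Against hepatocytes the IL6-iMHs had 1 gene higher and 22 lower over the 4 lines, with 24.8% higher and 7.79% lower among all genes (32.6% changed). The members' median was -1.35.

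F3 was the gene higher over the lines (2.34 ± 0.05, adjusted p = 4.4e-27). It had 7.44, 7.28 and 7.39 FPKM in mouse-1 at P10, 4.61, 4.57 and 4.46 in mouse-2, 27.1, 24.7 and 24.9 in clone-1 and 6.64, 6.98 and 6.27 at P35, all above the hepatocytes. The largest falls on the log2(FPKM + 1) scale were those of Mbl2, C8a and C8b. Mbl2 had 0.601, 0.4 and 0.53, then 1.11, 1.3 and 1.43, then 1.81, 1.93 and 2.11, and then 0.347, 0.564 and 0.168 FPKM (-7.68 ± 0.07). C8a had 11.7, 11.7 and 13.1, then 29.1, 28.3 and 27.9, then 0.116, 0.0361 and 0.0662, and then 3, 2.85 and 4.25 FPKM (-5.63 ± 0.06). C8b had 37.9, 38.4 and 42.3, then 14.9, 12.2 and 14.3, then 5.09, 5.63 and 6.25, and then 7.12, 8.48 and 7.34 FPKM (-4.84 ± 0.07). The highest matured samples of these genes stayed below the lowest hepatocyte sample, which was 302 FPKM for C8a, 358 for Mbl2 and 372 for C8b.

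By role, all 6 genes of terminal complement were lower in IL6-iMHs than in hepatocytes, as were both fibrinolysis genes and 3 of 4 in the lectin pathway. None of the 3 inhibitors was called, all being under 2-fold, with C4bp at 0.26, Cfi at -0.01 and Vtn at -0.21. Prothrombin (-0.30), Kng1 (-0.49), C3 (-0.08), C4b (-0.19), Fga (0.28), Fgb (0.11) and Fgg (-0.16) were not called either. For fibrinogen these means join lines on both sides of hepatocytes. In IL6-iMHs of mouse-1 at P35 Fga (-1.24), Fgb (-1.55) and Fgg (-1.88) were called lower, while in the other 3 the values ran from 0.06 to 0.92 and were not called. F2 in IL6-iMHs averaged 1000 ± 211 FPKM (SD over 12 samples, mouse-1 counted at both passages) against 1210 ± 58.9 FPKM in hepatocytes. Klkb1, plasma prekallikrein, was at 0.388 ± 0.394 FPKM against 33 ± 2.09 FPKM (-4.66), and differed by 0.32 from the IL6-iHPCs.

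Between P35 and P10 of mouse-1 the IL6-iMHs had 3 genes higher (Hrg 2.82, Cfb 1.08, C2 1.05) and 15 lower, against 3.57% higher and 2.64% lower among all genes (6.21% changed). The members' median was -0.56. Under quantile normalization 1 was higher and 15 lower, but the share of all genes was not counted under it. The 3 fibrinogen chains were among the lower genes, with Fga at -2.03, Fgb at -2.18 and Fgg at -2.32, as were C6 (-2.78), F10 (-2.33), Plg (-2.26) and F7 (-2.24).

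Whether the difference with maturation changed between the passages was tested as an interaction (maturation at P35 minus maturation at P10). The interaction also holds the difference between the IL6-iHPCs of the 2 passages. It was called for 29 genes, 24 with a positive value and 5 with a negative one, against 9.65% and 24.1% of all genes (33.7% in all). On the log2(FPKM + 1) scale Vtn had the largest value (7.17 ± 0.12, adjusted p = 1.4e-27), followed by Hrg (5.70), C4b (4.94), Mbl1 (4.58) and F2 (4.45). The order may differ with a smaller pseudocount, since Hrg was at 0.0916 FPKM in IL6-iHPCs at P35. Maturation was called in opposite directions for C3 (-1.83 at P10 and 1.98 at P35), C4b (-1.52 and 3.42) and F7 (-1.13 and 1.42). The 5 genes with negative values were F11, Pros1, C6, Masp1 and F3 (-1.25 to -2.36). At P35 maturation lowered F11 (-1.94), Pros1 (-2.76), Masp1 (-1.44) and F3 (-1.32), none of which was called at P10, and C6 rose at both passages (3.78 at P10 and 1.94 at P35). That of C6 (-1.85) rested on the pseudocount of 1 and was 0.06 with a pseudocount of 0.1 and 3.16 by limma voom on recovered reads.

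**Figure D4:**
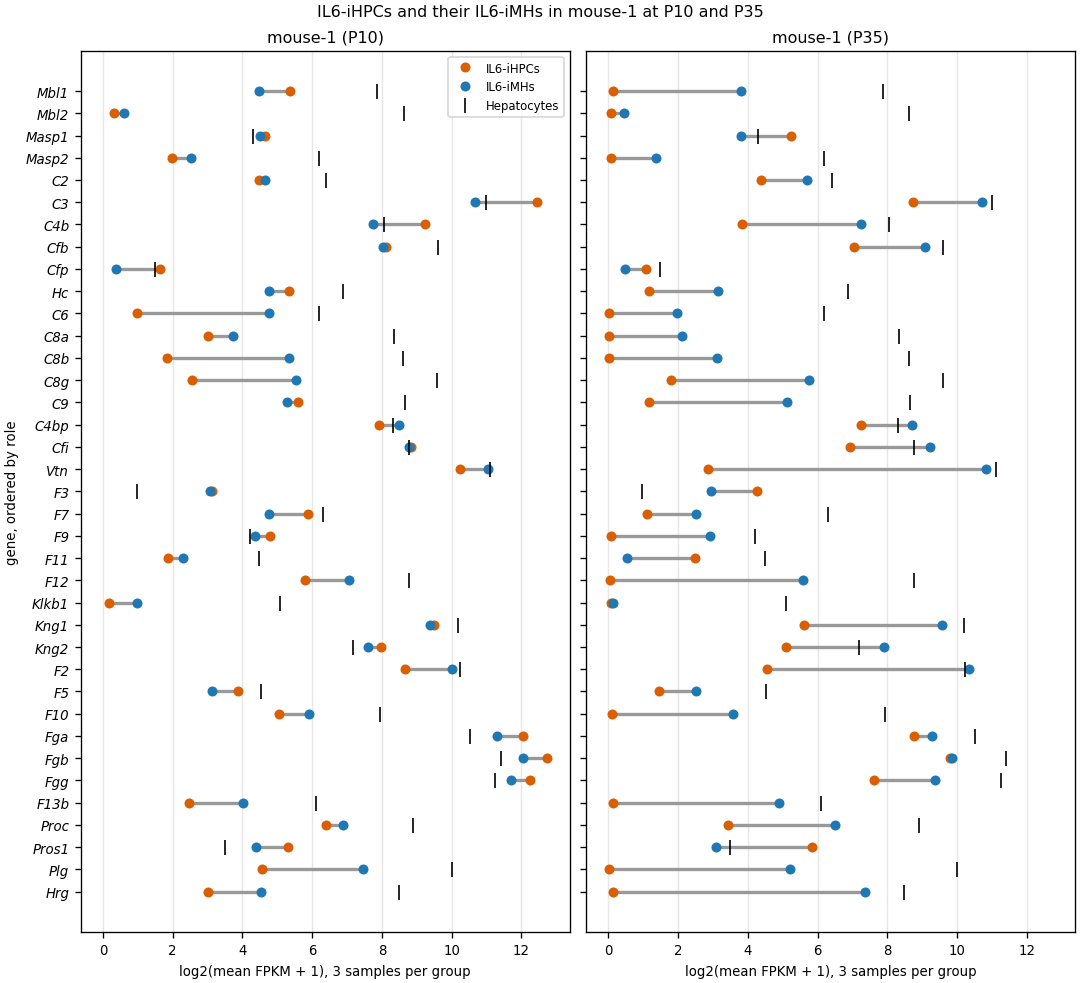
Mouse-1 at P10 (left) and P35 (right), 37 genes by role. Orange points are IL6-iHPCs, blue points their IL6-iMHs and black ticks hepatocytes, all as log2 of mean FPKM plus 1 over 3 samples. Grey lines join the 2 states, and the line of Vtn is short at P10 (difference 0.79) and long at P35 (7.96).

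Other genes of the pathways, from lists of regulators, receptors and further factors, were counted in the same fits. Of 15 further complement genes tested in the cells, 1 was higher and 11 were lower at D3. In passaged cells before maturation the counts were 1 and 10, with maturation 4 and 1, and in IL6-iMHs against hepatocytes 0 and 9. Among all genes 53.9% were higher and 12.1% lower at D3, 48.1% and 11.3% in the passaged cells, 6.68% and 21.4% with maturation, and 24.8% and 7.79% in the matured cells against hepatocytes. Clu, clusterin, an inhibitor of the pore, was the gene higher at D3 (3.09). Of 24 further coagulation and fibrinolysis genes, 8 were higher and 10 lower at D3. The counts were 8 and 11 in the passaged progenitors, 8 and 3 with maturation, and 9 and 7 in the matured cells against hepatocytes. Serpinc1, antithrombin, which inhibits thrombin, went from 1606 to 1.2 FPKM at D3 (-9.52) and stood at 16.6 FPKM in IL6-iMHs. Anxa2, annexin A2, a receptor for plasminogen, rose from 1.59 to 406 FPKM at D3 (7.30). Plat, the tissue plasminogen activator, rose in passaged IL6-iHPCs (6.40) and fell with maturation (-2.07).

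The liver table gives the same genes after PHX, and was normalized separately, so its levels are not compared with those of the cells. In whole liver, fewer hepatocytes and less RNA per hepatocyte cannot be told apart. The second sample at day 3 stood apart from its replicates. It had 3.79 FPKM of Mbl2 against 377 and 475, 35.5 FPKM of C9 against 484 and 379, and 2899 FPKM of Kng1 against 1572 and 1298. The chi-square per gene of its recovered reads against the other 2 replicates was 966.37 and 1141.97, and between those 2 it was 293.41. Calls of members at day 3 are therefore given with and without it. It also widens the error at the other times, which share its fit.

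Counts in the liver were small. At 6 hours 3 of 39 genes were higher and 3 lower than in normal liver, against 4.78% higher and 11.5% lower among all 11114 genes tested (16.3% changed). At 24 hours 4 were higher and 3 lower (all genes 3.74% and 4.16%, 7.90% in all), and at day 3, 6 and 3 (3.33% and 2.49%, 5.82% in all). At day 7, 2 were higher and 0 lower (7.81% and 1.03%, 8.84% in all), and at day 14 none was called by limma (0.981% and 2.00%, 2.98% in all). Some members passed on the adjusted p there but stayed under 2-fold, such as C3 (0.77, limma adjusted p = 0.016). At day 14, 10 genes had an unadjusted p under 0.05 (30.0% of all genes did), and limma voom on recovered reads called 2, both lower (6.79% of all genes were called by it and 5.49% lower). The members' medians were -0.34 at 6 hours, when the median of all genes was -0.28, -0.36 at 24 hours and -0.20 at day 3. Without the second sample of day 3 the members' median there was 0.17. Under median scaling the split at 6 hours was 5 higher and 1 lower (all genes 7.41% and 5.87%), with C3 (1.19) and Pros1 (1.02) gained and F3 (-0.87) and Klkb1 (-1.0) lost. All times share the 3 normal livers, so they are set side by side.

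Fibrinogen led the rises at 6 hours. Fga had 1571, 1238 and 1559 FPKM in normal liver and 4871, 4991 and 4830 FPKM at 6 hours. Fgb had 2362, 2576 and 2378 FPKM and then 8897, 8567 and 8249 FPKM. Fgg had 2327, 2371 and 2275 FPKM and then 7569, 8097 and 9091 FPKM. No sample overlapped between the groups, and the differences were 1.76 ± 0.36 (adjusted p = 0.00084), 1.81 ± 0.34 (0.00042) and 1.82 ± 0.34 (4e-04). The ratio of Fgg to Fgb lay between 0.753 and 1.1 in all 18 livers. Fibrinogen rose from 33.4 to 35.6% of the members' summed FPKM in normal liver to 64.4 to 68.6%.

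At 24 hours the first sample was lower than the others for all 3 chains. Fgb had 4819, 9597 and 9185 FPKM (1.62, adjusted p = 0.0022), Fgg 4473, 8724 and 7826 (1.53, 0.0032) and Fga 2296, 4201 and 4220 (1.25, 0.015). Without the second normal liver, or the second or the third sample at 24 hours, Fga no longer passed (adjusted p = 0.052, 0.063 and 0.065). At day 3 Fga had 3936, 7055 and 1856 FPKM, Fgb 5973, 10748 and 3295 and Fgg 4996, 8981 and 2582, the second sample being the highest for each. The differences of 1.36 (Fga), 1.29 (Fgb) and 1.07 (Fgg) became 0.90, 0.86 and 0.63 without it, none of them called. At day 7 Fga had 1096, 1493 and 1431 FPKM, Fgb 1885, 2354 and 2297 and Fgg 1765, 1965 and 2001. At day 14 Fga had 1707, 2096 and 1962 FPKM, Fgb 2304, 2759 and 2840 and Fgg 2005, 2076 and 2268. None of these was called, with differences from -0.28 to 0.40.

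C3 stayed high for longer. It had 1306, 1131 and 1404 FPKM in normal liver, 2600, 2774 and 1863 at 6 hours, 2606, 2705 and 2728 at 24 hours, 4979, 5015 and 3320 at day 3, 2615, 3312 and 3013 at day 7 and 2292, 1877 and 2401 at day 14. Every operated liver was above every normal liver. The differences were 0.90, 1.07, 1.77, 1.22 and 0.77, called at 24 hours (adjusted p = 0.0012), day 3 (7.5e-05) and day 7 (3e-04). That at 24 hours was 0.98, just under 2-fold, without the second normal liver. Pros1 had 20.3, 23.5 and 20.2 FPKM in normal liver and 54.2, 103 and 48.4 at day 3 (1.56, adjusted p = 0.00038), all above normal liver. Without the second sample of day 3, C3 was at 1.67 and Pros1 at 1.23, both still called. Pros1 was not called at 6 or 24 hours (0.73 at both).

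**Figure D5:**
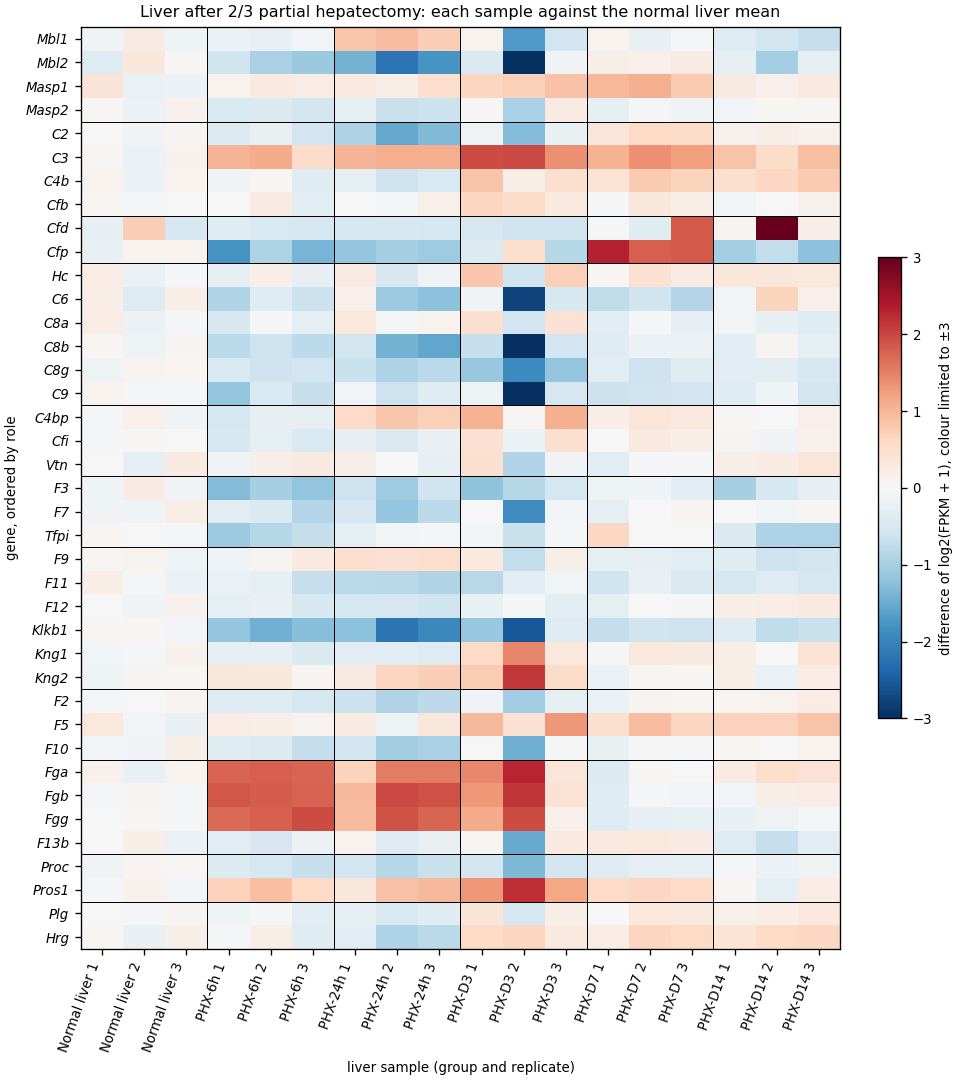
Each liver sample (columns, 3 per group) against the mean of normal liver for the 39 genes by role (rows), as a difference of log2(FPKM + 1) with colours limited at 3 either way. Fga, Fgb and Fgg form a red block at 6 and 24 hours, C3 is red from 6 hours on, and the second sample at day 3 stands apart, with Mbl2 at 3.79 FPKM.

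Cfp, properdin, which stabilises the alternative pathway convertase and is made mainly by myeloid cells, fell and then rose. It had 15.8, 20.1 and 20.1 FPKM in normal liver, 4.77, 9.33 and 6.44 at 6 hours, 7.77, 8.79 and 8.28 at 24 hours and 13.8, 27 and 9.8 at day 3, where it was not called with the second sample or without it (-0.63). At day 7 it had 96.2, 66.7 and 68.8 FPKM, and at day 14 8.68, 10.7 and 7.4 FPKM. The samples at 6 and 24 hours lay below normal liver (-1.36, adjusted p = 0.00097, and -1.08, 0.009) and those at day 7 above it (1.98, 7.2e-05). The 8 macrophage markers summed to 125 to 212 FPKM in normal liver, 43.8 to 92.3 at 6 hours, 128 to 137 at 24 hours, 138 to 364 at day 3, 768 to 1111 at day 7 and 82.8 to 107 at day 14, none being listed at 0 in a group. The 6 neutrophil markers summed to 1.65 to 7.01 FPKM in normal liver and 40.8 to 41.9 at 6 hours. They summed to 8.53 to 77.5 FPKM at 24 hours and 6.3 to 39 at day 3. Their sum was 56.3 to 112 FPKM at day 7 and 19.7 to 24 at day 14. Cd5l, a marker of liver macrophages, had 506, 341 and 348 FPKM at day 7 and 43.3, 87.5 and 69.6 FPKM in normal liver. The part of either cell type in the change of Cfp was not tested.

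Klkb1 fell early. It had 82.4, 83.4 and 75.5 FPKM in normal liver, 35.2, 29.2 and 32.4 at 6 hours, 33.6, 16.8 and 20.3 at 24 hours and 36.3, 12.9 and 61.1 at day 3. All of these were below normal liver, by -1.29 (adjusted p = 0.0089), -1.79 (0.0023) and -1.36 (0.015), the last being -0.76 and not called without the second sample. C2 had 49.9, 45.6 and 52.2 FPKM in normal liver and 25.3, 16.2 and 18.9 at 24 hours (-1.27, adjusted p = 0.0011). F3 had 2.73, 3.84 and 2.78 FPKM in normal liver and 0.672, 1.04 and 0.788 at 6 hours (-1.16, adjusted p = 0.00026), a fall that did not reach 2-fold under quantile normalization (-0.89) or median scaling (-0.87). It had 1.67, 0.952 and 1.72 FPKM at 24 hours, 0.769, 1.26 and 1.82 at day 3, 2.65, 2.78 and 2.22 at day 7 and 1.04, 1.94 and 2.43 at day 14, not called at any of these times. Endothelial markers summed to 132 to 150 FPKM in normal liver and 77.7 to 93.1 at 6 hours, and their part in the values of F3 was not tested.

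C8g and C8b were lower at day 3. C8g had 503, 606 and 583 FPKM in normal liver and 256, 150 and 248 at day 3 (-1.40, adjusted p = 0.00012), and was still called without the second sample (-1.16). C8b had 279, 240 and 283 FPKM and then 166, 26.8 and 178 (-1.51, 0.031), and was at -0.63 and not called without it. Kng2, the second kininogen gene, was called higher at day 3 (1.14) with all samples and was at 0.66 without the second. Left out of the fit, that sample also changed calls elsewhere. C4bp (1.05, adjusted p = 5.6e-05) and F5 (1.13, 0.00045) were then called higher at day 3, leaving 4 higher and 1 lower, when 4.16% of the 11068 genes then tested changed. Mbl2 (-1.80, 3.9e-05) and C8b (-1.17, 0.00027) were then called lower at 24 hours. Mbl2 had 389, 652 and 526 FPKM in normal liver and 192, 109 and 148 at 24 hours, with no overlap.

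Prothrombin was not called at any time. F2 had 897, 925 and 993 FPKM in normal liver, 721, 717 and 646 at 6 hours, 600, 501 and 548 at 24 hours, 875, 456 and 765 at day 3 (-0.20 without the second sample), 812, 986 and 974 at day 7 and 969, 1009 and 1102 at day 14. Samples at 6 and 24 hours lay below normal liver without reaching 2-fold (-0.43 and -0.77). The 7 hepatocyte markers summed to 53154 to 57887 FPKM in normal liver, 42453 to 49940 at 6 hours, 30395 to 35134 at 24 hours, 35207 to 67543 at day 3, 39326 to 45454 at day 7 and 50477 to 59999 at day 14, none being listed at 0. These markers were lower at 24 hours, as were F2, C2, Klkb1 and Mbl2. Other members did not fall then, such as Vtn (-0.03), C8a (0.12), Mbl1 (0.83) and C4bp (0.70), none of them called. At day 7 C2 had 63.2 to 75.5 FPKM against 45.6 to 52.2 in normal liver. The part of the markers in these values was not tested. Cfd, factor D, which is made mainly by fat, was below 2 FPKM in all normal livers and at 26.9 FPKM in the second sample of day 14, against 0.583 and 0.74 in the others. The 5 adipocyte markers (Adipoq, Plin1, Cidec, Lep, Fabp4) summed to 22 to 27.5 FPKM in normal liver, 137 to 187 at 6 hours, 190 to 254 at 24 hours, 24.8 to 242 at day 3, 35.9 to 56.5 at day 7 and 17 to 40.7 at day 14, and Cfd was at 0.0392 to 0.163 FPKM at 6 and 24 hours. Of these markers 2 were listed at 0 in all samples of normal liver, 2 at 6 hours and 2 at 24 hours. At day 3 the number was 3, at day 7 it was 1 and at day 14 it was 0. Adipoq was at 2.58 FPKM in the second sample of day 14 and listed at 0 in the other 2. The other markers are not given by sample here. Cfd was not called (1.5, adjusted p = 0.23), and the part of fat in its value was not tested. With all samples in the fit, 12 of the 39 genes were called at some time and 27 at none, against 28.5% of all genes called at some time. Among these 27, the largest differences were those of Mbl2 at day 3 (-2.43) and 24 hours (-1.80). The first rests on the second sample of day 3, and was -0.27 without it. Tfpi had 3.97, 3.79 and 3.55 FPKM in normal liver and 1.24, 1.64 and 1.92 at 6 hours, below every normal liver (-0.88, or -0.60 relative to the median gene). With a pseudocount of 0.1 it was called (-1.20). Endothelial markers were lower at 6 hours as well (77.7 to 93.1 FPKM against 132 to 150), and their part in the values of Tfpi was not tested. The mean differences of Plg (-0.37 to 0.22) and Vtn (-0.17 to 0.26) stayed under 2-fold at every time. Single samples of Plg nevertheless lay apart from normal liver (779 to 852 FPKM), all being below it at 24 hours (593 to 657) and above it at day 14 (897 to 1011). At day 3 Plg was at 0.29 without the second sample, and Vtn ran from 898 to 2364 FPKM against 1397 to 2016 in normal liver.

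Of the further complement genes 21 could be tested in the liver. At 6 hours 0 were higher and 4 lower, with C1qc (-1.28) and C1qa (-1.15), the C1q chains, falling most. Relative to the median gene of that time these 4 lay between -0.99 and -0.76, under 2-fold. At day 7, 4 were higher and 0 lower, led by Itgb2 (2.56) and C1qc (2.22). C1q is made by macrophages, whose marker sums stand beside Cfp, and their part was not tested. Among all genes 4.78% were higher and 11.5% lower at 6 hours, and 7.81% and 1.03% at day 7. Of 25 further coagulation genes 5 were higher and 2 lower at 6 hours. Thbd, thrombomodulin, rose from 1.18 to 21.1 FPKM (3.34). At 24 hours 6 were higher and 1 lower (3.74% and 4.16% of all genes), Fgl1, a fibrinogen-like protein of hepatocytes, going from 409 to 3059 FPKM (2.90, adjusted p = 6.6e-06). At day 3 it was at 1837 FPKM (2.11), and without the second sample at 1715 FPKM (1.99, still called).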

How the data were processed

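Poly(A) RNA from 33 cell samples and 18 livers was sequenced in pairs on an Illumina instrument. The authors deposited 1 table of FPKM values for the cells and 1 for the livers, a unit taken from the values. The submitters' processing notes name TopHat 1.4.1, Cufflinks 1.3.0 and mm10. A further table of a culture day held none of the 39 genes and was not used here. Values were converted to log2(FPKM + 1), which understates the change of low genes, and the filter asked for 1 FPKM in 3 samples, which 12328 genes met in the cells and 11114 in the liver. Repeated symbols (2 in each table) were averaged. All groups of a table were fitted together with limma 3.58.1 (limma-trend, R 4.3.3), with Benjamini-Hochberg adjustment over all genes. A change was called at an adjusted p under 0.05 and at least 2-fold. Errors are SE of the fit beside log2 differences and SD beside levels. Tables were normalized separately and tested apart. Whole reads were recovered for all 18830 and 17331 genes above 0 (tolerance 0.05 reads), whether reads or pairs not being established. Replicates differed by more than sampling noise (chi-square per gene of at least 6.05), so none was counted as a repeat deposit.

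The members and lists were chosen with earlier results of these data known. Values in every sample are given for the 3 largest rises and falls called at D3, in passaged IL6-iHPCs, in IL6-iMHs against IL6-iHPCs and against hepatocytes, and at each liver time, and for C3, F2, F3 and the fibrinogen genes. Of the other pathway genes, the 2 largest rises and falls per list and comparison may be named, and some of these are not reported here. Other values stand for members that help to describe a role. The fit was repeated with quantile normalization or median scaling, with 0.1 as the pseudocount, with a stricter filter (5 FPKM) or none, without the fold threshold, with the replicate number as a block, and with each sample left out in turn. A voom fit of the recovered reads, and leaving out the second day 3 liver in every liver fit, were added after seeing the data. Python 3.11.15 with pandas 2.3.3 and matplotlib 3.10.9 made the sums and plots.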

Additional observations from a re-analysis of the deposited data

Results flagged for a closer look

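Maturation in mouse-1 differed between P35 and P10 for 29 of 37 genes by the interaction test, against 33.7% of all genes. The test takes the difference IL6-iMHs minus IL6-iHPCs at P35 less that at P10, on the log2 scale. Its values therefore also hold the difference between the IL6-iHPCs of the 2 passages. Each is 1 line with 3 technical repeats a group. In the lectin pathway the values were 4.58 for Mbl1 and -1.31 for Masp1. Among the convertase parts they were 1.14 for C2, 3.80 for C3, 4.94 for C4b and 2.16 for Cfb. In terminal complement Hc had 2.59, C8a 1.41, C9 4.26 and C6 -1.85, the last changing sign with another pseudocount. Of the inhibitors, Cfi had 2.37 and Vtn 7.17. In the tissue factor pathway F3 had -1.25 and F7 2.54. The contact and intrinsic factors had 3.24 (F9), -2.36 (F11), 4.29 (F12), 4.07 (Kng1) and 3.17 (Kng2). The common pathway had 4.45 (F2), 1.84 (F5) and 2.59 (F10). Of the fibrin genes, Fga had 1.24, Fgg 2.30 and F13b 3.20. Proc had 2.57, Pros1 -1.86, Plg 2.30 and Hrg 5.70.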

How the results depend on the processing

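Without the fold threshold the called members numbered 34 with maturation over the lines, 32 in mouse-1 at P10, 34 in mouse-2 and 32 in IL6-iMHs of P35 against P10, when 91.7%, 79.6%, 84.7% and 57.3% of all genes were called. In liver they then numbered 13 at 6 hours (52.5% of all genes), 18 at 24 hours (33.2%), 17 at day 3 (28.9%), 5 at day 7 (29.4%) and 5 at day 14 (16.9%). At day 14 a pseudocount of 0.1 and limma voom each called 2 in place of 0. Voom then called 6.79% of all genes, and the share with that pseudocount was not counted. Median scaling reversed Masp1 (-1.09), Fgb (-0.29) and Cfp (-0.38) at D3, and C3 (-1.04), C4b (-1.16), Cfp (-1.19), Kng2 (-0.20), Fga (-0.04) and Fgg (-1.10) at D14. It also reversed Fgb in passaged IL6-iHPCs (-1.07), Fgg in mouse-1 at P10 (-0.03), and Fgg (-0.07) and Cfp (-1.07) in mouse-2. Quantile normalization reversed Cfp at D3 (-0.51), at D14 (-1.33) and in mouse-2 (-1.16), and Kng1 at D14 (1.01). Median scaling did more than take out the shift of the median gene, which went from 1.14 to -0.32 at D3, from 1.00 to -0.31 at D14, from 0.93 to -0.30 in passaged IL6-iHPCs and from 0.76 to -0.36 in mouse-2, and quantile normalization left it at 0.11, 0.09, 0.13 and 0.07. In the interaction, C6 turned to 0.06 with the pseudocount of 0.1 and 3.16 by voom, and C8b to 2.30 and 6.33. The cause was not tested.

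Leaving out 1 sample at a time, the count ranged from 5 (without PHX-D3 replicate 2) to 13 at day 3 and from 0 to 1 at day 14. At day 3 it was 12 without replicate 1 and 13 without replicate 3, and at 24 hours it ranged from 5 to 9. The share of all genes was counted only at day 3 without PHX-D3 replicate 2 (4.16%). The other counts can therefore not be set beside all genes. In the cells no count moved by more than 1. Leave-one-out kept 7246 of 7313 single values on their side of the threshold, and none reversed. Same-numbered samples correlated with a median r of -0.0156 in cells (-0.536 to 0.573) and -0.0551 in livers (-0.299 to 0.386). A median over all pairs of groups cannot exclude pairing between particular groups. The replicate block, which is shared by all groups, changed none of the 935 single calls or 25 counts. The number of samples, 3 a group, limits the precision in liver.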
